A study of Mus musculus with 8 samples.

Results

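Collagens and the proteins that fold, modify, cross-link and anchor them were examined in whole testes of 4 wild-type mice and 4 mice labelled Dio3KO. Members were the genes whose deposited symbol had the form of a collagen chain (Col, a number, a and a number), together with 15 named genes of collagen processing and matrix assembly. The rule found 57 symbols. Of these, 48 had a larger group mean of at least 1 RPKM, out of 15821 genes at that level in the whole series, and these 48 are described here as 8 fibrillar chains, 8 basement membrane chains, 18 other collagen chains and 14 enzymes and matrix partners. RPKM counts reads relative to transcript length and library size, so levels of different genes can be set side by side. Per the labels, both groups shared the 129/SVJ background, postnatal day 5 and testis as tissue, and differed in genotype, wild type or Dio3KO. The enzyme encoded by Dio3 removes iodine from thyroid hormones and so inactivates them, and the title of the study puts the question as regulation of neonatal testis genes by thyroid hormone. How Dio3 was altered is not said in the labels, and whole testes hold every cell type of the organ.

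Collagens are proteins of 3 chains wound into a triple helix. Fibrillar collagens (types I, III, V, XI and others) pack into the fibrils of connective tissue, type IV forms the sheet-like network of basement membranes, and the remaining types decorate fibrils, form beaded filaments or span the cell membrane. Each chain is hydroxylated on proline and lysine in the endoplasmic reticulum, folded with the chaperone Serpinh1, secreted, and then cross-linked by lysyl oxidases. In the testis, collagens lie in the capsule and interstitium and in the layered wall of the seminiferous tubules, where peritubular myoid cells and Sertoli cells both contribute to the basement membrane.

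The deposited table gave 1 mean and 1 coefficient of variation (CV, the SD divided by the mean) per group, so each level below is the authors' mean, values of single mice were not used, and the reads per library are unknown. "Rose" and "fell" are written only where the adjusted p in the authors' deposited table was below 0.05. Dio3 had a mean of 0.52 RPKM in wild type (CV 0.20) and 2.95 RPKM in the Dio3KO-labelled group (CV 0.29), so its level went against a simple loss of the transcript, and every direction below rests on the label. Of all genes measured, 29.7% passed the authors' threshold, 13.8% higher and 15.8% lower in Dio3KO-labelled testes, and the median log2 ratio was -0.05. The organ matched its label by markers: the sums for Sertoli genes were 1437 RPKM (wild type) and 1908 RPKM (Dio3KO-labelled), and those for germ cell genes were 270 and 251 RPKM. Clu alone gave 797 and 1232 RPKM of the Sertoli sums, and of the 8 Sertoli genes 3 rose and 3 fell. The sums for genes of hypothalamus and neurons were 7.98 and 5.41 RPKM, although the extraction text names hypothalami.

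Of the 48 genes, 12 rose (25.0%), 5 fell (10.4%) and 31 did not pass. Those that rose included the type IV chains Col4a3, Col4a4 and Col4a5, the basement membrane zone collagens Col15a1 and Col18a1, the matrix protein Sparc and the lysyl hydroxylase Plod2. Among the genes that fell, 3 of 5 were transmembrane collagens. The median log2 ratio was 0.56 for basement membrane collagens, 0.19 for fibrillar collagens, 0.16 for other collagens and 0.13 for enzymes and matrix partners. Log2 ratios are of means with 0.5 RPKM added, which understates the change of low genes, while values in fold are plain ratios of the deposited means, and the errors given after ± are SEs computed from the deposited CVs. Members were kept by the larger of their means, so a low gene could enter through the group where it was high. With the average of both means at 1 RPKM or more, the counts were again 12 and 5. A second test, limma's moderated test on the deposited means and CVs, called 18 of the 48 higher and 6 lower with Benjamini-Hochberg adjustment over all genes, where it called 41.6% of all genes, 18.5% higher and 23.1% lower. With log2 ratios centred on the median of all genes, limma called 20 higher and 4 lower, and over all genes 23.0% higher and 16.7% lower.

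**Figure D1:**
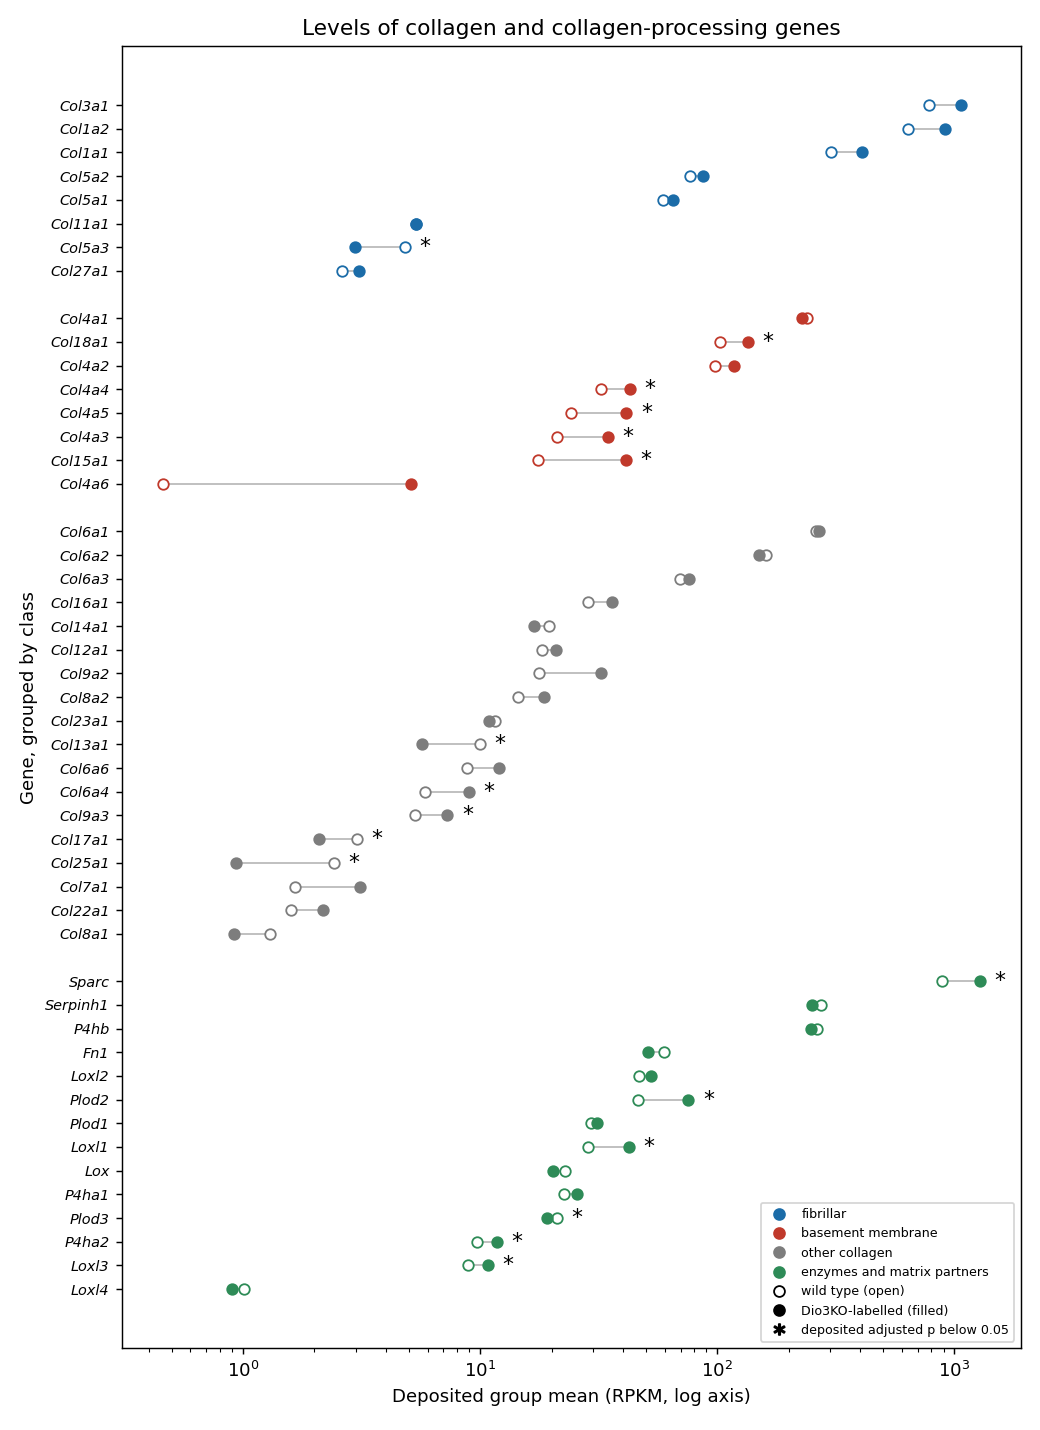
Deposited group means of the 48 genes in RPKM on a log axis, by class and in order of the wild-type level, with open circles for wild type, filled circles for the Dio3KO-labelled group and a star where the authors' adjusted p was below 0.05. Col3a1, Col1a2 and Sparc stand at the top of the scale in both groups, and of these 3 Sparc alone carries a star.

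The fibrillar chains made up most of the collagen message. Summed over the 34 collagen genes, the level was 3041 RPKM in wild type and 3876 RPKM in Dio3KO-labelled testes, a ratio of 1.27, while the sum over all genes measured had a ratio of 0.90. Col1a1, Col1a2 and Col3a1, the chains of types I and III, supplied 56.4% of the wild-type sum and 61.8% of the Dio3KO-labelled sum. Col3a1, the single chain of type III, was at 778 RPKM (CV 0.31) and 1071 RPKM (CV 0.09). Col1a2, the second chain of type I, was at 637 RPKM (CV 0.28) and 915 RPKM (CV 0.09), and its partner Col1a1 was at 301 RPKM (CV 0.27) and 409 RPKM (CV 0.14). All 3 means were higher in the Dio3KO-labelled group, by 1.38-fold, 1.44-fold and 1.36-fold, but none passed, with adjusted p of 0.161, 0.103 and 0.1462 in the authors' deposited table. The log2 ratios were 0.46 ± 0.23 for Col3a1, 0.52 ± 0.21 for Col1a2 and 0.44 ± 0.22 for Col1a1, and the wider spread lay among the wild-type mice for each of them. Under limma's moderated test Col1a2 did pass, with an adjusted p of 0.0404, and Col1a1 and Col3a1 did not (0.0848 and 0.0915).

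The regulatory chains Col5a1 and Col5a2 had smaller log2 ratios than types I and III, 0.13 ± 0.18 and 0.17 ± 0.27. With SEs of this size no difference from types I and III is shown, and none was tested. Col5a1 was at 59.1 RPKM (CV 0.23) and 64.9 RPKM (CV 0.09), and Col5a2 at 76.9 RPKM (CV 0.37) and 86.7 RPKM (CV 0.05). Col11a1 was at 5.38 and 5.34 RPKM and Col27a1 at 2.62 and 3.08 RPKM, and none of these 4 chains passed. Col5a3, a less common chain of type V, was the fibrillar gene that fell, from 4.82 RPKM (CV 0.04) to 2.96 RPKM (CV 0.09) (log2 ratio -0.62 ± 0.06), and the authors' deposited table gives an adjusted p of 0.0039. The ratio of Col5a3 to Col5a1 was therefore 0.08 in wild type and 0.05 in Dio3KO-labelled testes. Both deposited transcripts of Col5a3 passed and fell. Other ratios between partner fibrillar chains were close in both groups: Col1a1 to Col1a2 stood at 0.47 and 0.45, and Col5a2 to Col5a1 at 1.30 and 1.34. These chain ratios were not tested.

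Basement membrane collagens held 5 of the 12 genes that rose, out of 8 members, and 0 that fell. Over all genes measured, 13.8% rose and 15.8% fell. Limma's moderated test called 7 of the 8 higher and 0 lower, against 18.5% and 23.1% of all genes measured. The 7 include Col4a6, which reached the level limit only through its Dio3KO-labelled mean. Type IV chains assemble into a common network of Col4a1 and Col4a2 products, and into a second network of Col4a3, Col4a4 and Col4a5 products known from specialised basement membranes such as that of the kidney glomerulus and also from the testis. Col4a3 rose from 21.0 RPKM (CV 0.07) to 34.6 RPKM (CV 0.06) (log2 ratio 0.71 ± 0.07), and the authors' deposited table gives an adjusted p of 0.0043. Col4a5 rose from 24.2 RPKM (CV 0.10) to 41.4 RPKM (CV 0.08) (log2 ratio 0.76 ± 0.09), and the authors' deposited table gives an adjusted p of 0.0061. Col4a4 rose less, from 32.2 RPKM (CV 0.05) to 42.9 RPKM (CV 0.11) (log2 ratio 0.41 ± 0.09), and its adjusted p in the authors' deposited table, 0.0495, lay just under the threshold. The chains of this second network thus rose by 1.65-fold, 1.71-fold and 1.33-fold.

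The chains of the common network did not pass. Col4a1 was at 240 RPKM (CV 0.13) and 227 RPKM (CV 0.06) (adjusted p = 0.5146 in the authors' deposited table). Its log2 ratio of -0.08 ± 0.10 turned to 0.02 when both groups were scaled to the same summed RPKM. Col4a2 was at 98.0 RPKM (CV 0.11) and 117 RPKM (CV 0.10) (adjusted p = 0.1277 in the authors' deposited table), and limma's moderated test gave an adjusted p of 0.0371. The ratio of Col4a1 to Col4a2 was 2.45 in wild type and 1.94 in Dio3KO-labelled testes. Within type IV, the 3 chains of the second network made up 18.6% of the summed level in wild type and 25.4% in Dio3KO-labelled testes, and Col4a1 with Col4a2 made up 81.3% and 73.5%. Within the second network, the ratio of Col4a4 to Col4a3 was 1.54 and 1.24. The difference between the networks was not tested.

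**Figure D2:**
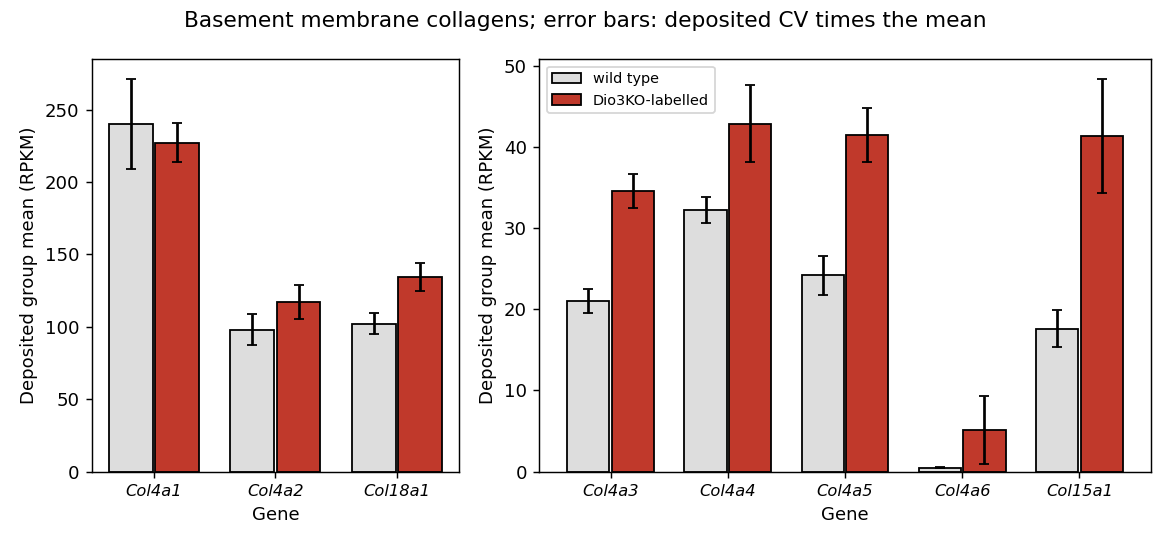
Deposited group means in RPKM of the basement membrane collagens, with error bars of the deposited CV times the mean; the left panel has its own scale for the 3 most abundant genes. Col4a3, Col4a5 and Col15a1 were higher in the Dio3KO-labelled group by more than their error bars, the bars of Col4a1 overlap, and Col4a6 had an error bar nearly as long as its Dio3KO-labelled mean.

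The 6 type IV genes are arranged in 3 pairs that start next to each other on opposite strands, so the stretch between the starts can serve both genes of a pair. In mm10 with GENCODE M21 protein-coding starts, Col4a4 starts on the minus strand of chromosome 1 at 82586849 and Col4a3 on the plus strand at 82586976, with 126 bases between them. RefSeq also holds transcripts of this pair with longer first exons, so that its gene extents overlap. Col4a6 starts on the minus strand of chromosome X at 141474076 and Col4a5 on the plus strand at 141475385, with 1308 bases between them, and the starts of Col4a1 and Col4a2 on chromosome 8 overlap by 22 bases. The 126 bases between Col4a4 and Col4a3, the pair whose members both rose, and the stretches just upstream of Col4a5 and Col4a6 are shown because these 2 pairs hold the type IV genes that rose and Col4a6, which had the largest ratio without passing. The letters come from RefSeq (GRCm38.p6), are written 5′ to 3′ on the strand given, and are in lower case with matches to 4 motifs in capitals.
Col4a4-Col4a3 interval, chr1:82586850-82586975, plus strand: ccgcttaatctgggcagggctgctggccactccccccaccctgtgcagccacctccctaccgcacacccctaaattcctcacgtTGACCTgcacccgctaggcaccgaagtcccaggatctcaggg
Upstream of Col4a5, chrX:141475169-141475384, plus strand: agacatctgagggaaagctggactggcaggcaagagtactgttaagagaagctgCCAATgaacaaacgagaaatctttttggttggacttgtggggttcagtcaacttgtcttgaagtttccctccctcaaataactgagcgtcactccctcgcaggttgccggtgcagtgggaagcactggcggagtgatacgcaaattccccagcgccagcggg
Upstream of Col4a6, chrX:141474077-141474326, minus strand: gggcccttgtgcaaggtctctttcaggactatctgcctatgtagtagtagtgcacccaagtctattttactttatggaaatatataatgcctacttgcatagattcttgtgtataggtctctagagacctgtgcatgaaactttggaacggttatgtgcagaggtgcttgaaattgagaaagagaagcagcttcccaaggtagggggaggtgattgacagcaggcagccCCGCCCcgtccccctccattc
On both strands, 4 motifs were searched. The Sp1 box was searched as GGGCGG and the CCAAT box by that name. The core motif of many nuclear receptor sites was searched as AGGTCA and the TATA box as TATAAA. No match overlaps another in the stretches shown. The Col4a4-Col4a3 interval holds 1 AGGTCA on the strand opposite the printed one, at bases 85 to 90 counted from the printed 5′ end. AGGTCA is also in 7.22% of all upstream windows of that length, which end at RefSeq starts. The match, from 82586934 to 82586939, lies where the RefSeq extents of Col4a3 and Col4a4 overlap. The Col4a5 stretch holds 1 CCAAT at bases 55 to 59 (30.8% of windows of that length), and the Col4a6 stretch 1 GGGCGG at bases 230 to 235 (32.7%), on the strand opposite the printed one. The RefSeq extent of Col4a6 ends at 141474095, inside this GGGCGG match (141474092 to 141474097). These shares are over all windows, including those of genes not measured here. In windows from 250 bases before to 50 bases after a start, GGGCGG was in 35.7% of all and in 61.8% of those of genes measured. Among members, 35 genes had a promoter window in RefSeq, 37 windows in all, each reaching from 250 bases before to 50 bases after a start. GGGCGG was in 73.0% of these windows, against 61.8% of the windows of all genes measured here, and AGGTCA in 10.8% against 12.6%, with Col4a4, Col7a1, Col11a1 and Col23a1 as the 4 genes holding it. TATAAA was in 13.5% against 7.26% and CCAAT in 37.8% against 38.1%. A match shows only that the letters are present.

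Col4a6, whose product joins with that of Col4a5 in a further type IV network, had the largest ratio of any member and did not pass. Its mean was 0.46 RPKM in wild type (CV 0.09) and 5.13 RPKM in the Dio3KO-labelled group (CV 0.82), an 11.2-fold ratio (adjusted p = 0.1927 in the authors' deposited table). Because the wild-type mean is so low, the log2 ratio with 0.5 RPKM added was smaller, 2.55 ± 0.54. A CV of 0.82 means that the Dio3KO-labelled mice differed among themselves by nearly as much as their mean. By limits set after Col4a6 was seen (a Dio3KO mean of at least 1 RPKM, more than 2-fold the wild-type mean, with a CV of at least 0.6), 4 other genes of all those measured had this shape. They were Crisp1, an epididymal secretory protein (0.15 and 1.08 RPKM, CV 0.86), Spink8 (0.28 and 2.01 RPKM, CV 0.90), Iigp1, an interferon-induced GTPase (0.36 and 2.38 RPKM, CV 0.66), and 3110007F17Rik (0.04 and 1.17 RPKM, CV 0.81). Of the 6 listed markers of epididymal epithelium 5 were in the table, with a sum of 0.98 RPKM for wild type and 3.12 RPKM for the Dio3KO-labelled group. Lcn8 was at 0.03 and 0.02 RPKM, Pax2 at 0.12 and 0.08 RPKM, and Pax8 rose from 0.66 RPKM (CV 0.20) to 1.89 RPKM (CV 0.10). The part of such cells in the Col4a6 difference was not tested. With limma's moderated test, which pools the spread over genes, Col4a6 had an adjusted p of 0.00218, so its call depends on the test.

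Both multiplexins, collagens of the basement membrane zone that carry long non-helical ends, rose. Col15a1, which bridges basement membranes and fibrils, had the largest rise among members that passed, from 17.6 RPKM (CV 0.13) to 41.3 RPKM (CV 0.17), 2.35-fold (log2 ratio 1.21 ± 0.15), and the authors' deposited table gives an adjusted p of 0.024. Col18a1, the precursor of endostatin, rose from 102 RPKM (CV 0.07) to 134 RPKM (CV 0.07) (log2 ratio 0.39 ± 0.07). All 3 deposited transcripts of Col18a1 passed, with log2 ratios of 0.29 to 0.39, as did both of Col15a1. In RefSeq (GRCm38.p6), Col15a1 lies on chromosome 4 from 47207655 to 47313167 and Col18a1 on chromosome 10 from 77052178 to 77166530.

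**Figure D3:**
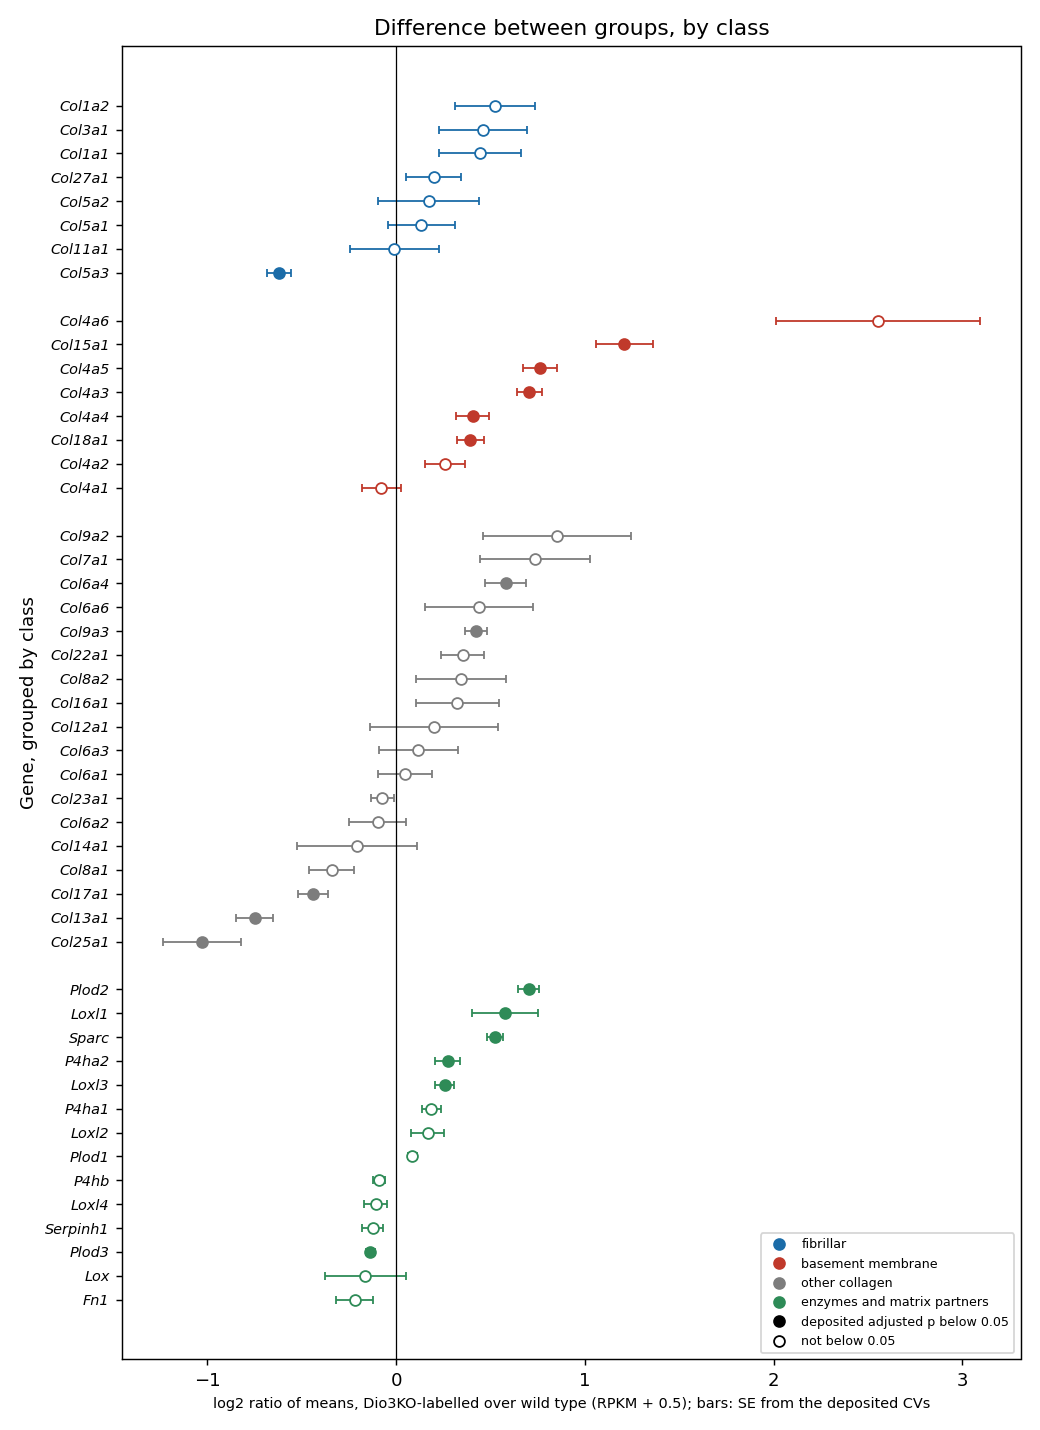
Log2 ratio of the deposited means (each with 0.5 RPKM added), Dio3KO-labelled over wild type, for each of the 48 genes by class, with bars of 1 SE computed from the deposited CVs and filled circles where the authors' adjusted p was below 0.05. The filled basement membrane points lie between 0.39 and 1.21, the filled transmembrane collagens Col17a1, Col13a1 and Col25a1 between -1.03 and -0.44, and Col4a6 stands far right with the longest bar.

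Of the 18 other collagens, 2 rose (11.1%), 3 fell (16.7%) and 13 did not pass. These shares lay near those of all genes measured, 13.8% higher and 15.8% lower. Transmembrane collagens, which are anchored in the cell membrane with the helix outside the cell, supplied all 3 that fell among their 4 members. Col25a1 fell from 2.42 RPKM (CV 0.14) to 0.93 RPKM (CV 0.40) (log2 ratio -1.03 ± 0.21), and the authors' deposited table gives an adjusted p of 0.0113. Col13a1, found at cell-matrix adhesions and at the neuromuscular junction, fell from 9.95 RPKM (CV 0.09) to 5.71 RPKM (CV 0.11) (log2 ratio -0.75 ± 0.10), and the authors' deposited table gives an adjusted p of 0.0074. Col17a1, a hemidesmosome component of epithelia, fell from 3.03 RPKM (CV 0.09) to 2.10 RPKM (CV 0.10) (adjusted p = 0.0147 in the authors' deposited table). The falls were shared by all 4 measured transcripts of Col13a1 and of Col25a1 and by both of Col17a1. Col23a1 was at 11.5 RPKM (CV 0.04) and 10.9 RPKM (CV 0.08) and did not pass, and its log2 ratio of -0.07 turned to 0.02 when both groups were scaled to the same summed RPKM. Under limma's moderated test the same 3 were called lower and Col23a1 was not.

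Type VI collagen, which forms beaded filaments around cells, was close between groups in its main chains. Col6a1 was at 261 RPKM (CV 0.19) and 269 RPKM (CV 0.06), Col6a2 at 160 RPKM (CV 0.19) and 150 RPKM (CV 0.09), and Col6a3 at 69.9 RPKM (CV 0.26) and 75.8 RPKM (CV 0.13). The log2 ratios were 0.05 ± 0.14, -0.10 ± 0.15 and 0.12 ± 0.21. That of Col6a2 changed sign, to 0.001, under scaling to the same summed RPKM. The ratio of Col6a1 to Col6a2 was 1.63 in wild type and 1.80 in Dio3KO-labelled testes. Col6a4, a later described chain, rose from 5.83 RPKM (CV 0.15) to 8.96 RPKM (CV 0.06) (adjusted p = 0.0149 in the authors' deposited table), and Col6a6 was at 8.76 RPKM (CV 0.36) and 12.1 RPKM (CV 0.21) and did not pass.

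The FACIT collagens, which sit on the surface of fibrils, had 1 riser among 6 measured members. Col9a3, a chain of type IX, rose from 5.30 RPKM (CV 0.08) to 7.28 RPKM (CV 0.04) (adjusted p = 0.0089 in the authors' deposited table). Its partner chain Col9a2 had a larger ratio of means, 17.7 RPKM (CV 0.55) against 32.3 RPKM (CV 0.11), and did not pass (adjusted p = 0.1142 in the authors' deposited table). The third chain, Col9a1, was at 0.38 and 0.36 RPKM, below the level limit, and so was the cartilage collagen Col2a1 at 0.25 and 0.40 RPKM. Col16a1 was at 28.6 and 35.9 RPKM, Col12a1 at 18.2 and 21.0 RPKM, Col14a1 at 19.5 and 16.9 RPKM and Col22a1 at 1.60 and 2.18 RPKM. The wild-type CV was 0.30 for Col16a1, 0.48 for Col12a1 and 0.43 for Col14a1, against 0.07 to 0.14 in the Dio3KO-labelled group, and none of these 4 genes passed.

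Collagens of low level completed the class. Col7a1, the anchoring fibril collagen, was at 1.66 RPKM (CV 0.48) and 3.10 RPKM (CV 0.19), Col8a2 at 14.5 RPKM (CV 0.34) and 18.5 RPKM (CV 0.04), and Col8a1 at 1.30 RPKM (CV 0.21) and 0.92 RPKM (CV 0.11). None of these passed. Col8a1 and Loxl4 (1.01 and 0.90 RPKM) lay just inside the level limit, and Col20a1 (0.97 and 0.94 RPKM) and Col24a1 (0.77 and 0.54 RPKM) just outside. In all, 9 members were outside it, 2 of which had an adjusted p below 0.05 with the higher mean in the Dio3KO-labelled group in the authors' deposited table (Col11a2 at 0.34 and 0.57 RPKM, Col28a1 at 0.17 and 0.33 RPKM) and 1 with the lower (Col24a1). The others were Col10a1, Col19a1 and P4ha3, with means of 0.02 to 0.43 RPKM, besides Col2a1, Col9a1 and Col20a1.

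Among the enzymes, the hydroxylases of lysine went in different directions. Plod2, which hydroxylates lysines in the chain ends and thereby sets the kind of cross-link, rose from 46.3 RPKM (CV 0.06) to 75.6 RPKM (CV 0.05), 1.63-fold (log2 ratio 0.70 ± 0.06), and the authors' deposited table gives an adjusted p of 0.0034, the smallest of any member. Plod1, which acts on the helix, was at 29.3 RPKM (CV 0.03) and 31.1 RPKM (CV 0.02) and did not pass (adjusted p = 0.0557 in the authors' deposited table). Plod3, which also adds sugars, fell from 21.0 RPKM (CV 0.02) to 19.1 RPKM (CV 0.03) (adjusted p = 0.0166 in the authors' deposited table). This fall was small (log2 ratio -0.14 ± 0.03), and did not pass limma's moderated test once ratios were centred on the median of all genes.

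Prolyl 4-hydroxylase, whose product keeps the triple helix stable at body temperature, is built of an alpha subunit and P4hb. P4ha2 rose from 9.67 RPKM (CV 0.09) to 11.8 RPKM (CV 0.03) (adjusted p = 0.0406 in the authors' deposited table), and 3 of its 5 transcripts passed. P4ha1, the main alpha subunit here, was at 22.5 RPKM (CV 0.04) and 25.7 RPKM (CV 0.06) and did not pass (adjusted p = 0.0633 in the authors' deposited table), although 1 of its 3 transcripts did at 0.0498. P4hb, also a general disulfide isomerase, was at 264 RPKM (CV 0.04) and 248 RPKM (CV 0.02), and its log2 ratio of -0.09 turned to 0.01 under scaling to the same summed RPKM. The collagen chaperone Serpinh1 was at 273 RPKM (CV 0.07) and 250 RPKM (CV 0.03) and did not pass (adjusted p = 0.1881 in the authors' deposited table). P4hb and Serpinh1 both had slightly lower means in the group where the summed collagen level was higher, with neither difference past the threshold. That sum was not tested, and Col1a1, Col1a2 and Col3a1, which supplied most of it, did not pass.

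Of the 5 lysyl oxidases, which start the cross-linking of collagen and elastin outside the cell, 2 rose and 0 fell. Loxl1, known for its part in elastic fibre assembly, rose from 28.4 RPKM (CV 0.21) to 42.6 RPKM (CV 0.13) (log2 ratio 0.58 ± 0.18), and the authors' deposited table gives an adjusted p of 0.0464. Loxl3 rose from 8.92 RPKM (CV 0.07) to 10.8 RPKM (CV 0.03) (adjusted p = 0.0231 in the authors' deposited table). Loxl2, which acts on type IV collagen, was at 46.9 RPKM (CV 0.10) and 52.7 RPKM (CV 0.07), and Lox was at 22.8 RPKM (CV 0.29) and 20.3 RPKM (CV 0.09). Neither passed.

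Sparc, a matricellular protein that binds fibrillar and type IV collagens, was the most abundant member in wild type and rose. Its level was 888 RPKM (CV 0.03) in wild type and 1278 RPKM (CV 0.05) in Dio3KO-labelled testes, 1.44-fold (log2 ratio 0.53 ± 0.04), and the authors' deposited table gives an adjusted p of 0.005. This fold equalled that of Col1a2, whose wild-type CV was 0.28 and which did not pass. Fibronectin, Fn1, on which collagen fibrils are laid down, was at 59.5 RPKM (CV 0.07) and 51.0 RPKM (CV 0.12) (adjusted p = 0.1363 in the authors' deposited table). All 10 transcripts of Fn1 had the lower mean in the Dio3KO-labelled group, with log2 ratios of -0.26 to -0.14, and 0 passed. These transcripts share most of their exons, so their values are not independent. Of 33 members with more than 1 measured transcript, 31 had the same call for all of them, the exceptions being P4ha1 and P4ha2.

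The fibrillar chains varied widely among wild-type mice. Of the 28 members with an average of at least 20 RPKM, 10 had a wild-type CV of at least 0.2 (35.7%), against 2.80% of the 5072 genes at that level. These 10 included all 5 fibrillar chains at that level (Col1a1, Col1a2, Col3a1, Col5a1 and Col5a2), with wild-type CVs of 0.23 to 0.37 and Dio3KO-labelled CVs of 0.05 to 0.14. The others were Col6a3, Col9a2, Col16a1, Lox and Loxl1. In the Dio3KO-labelled group 0 of the 28 had a CV of at least 0.2, against 0.53% of the 5072 genes, so a 0 here is not particular to the members. The wild-type CV was the larger one in 61.9% of the 5072 genes and in 75.0% of the 28 members. None of the 8 basement membrane collagens had a wild-type CV of at least 0.2, their range being 0.05 to 0.13. Of the 18 measured members with a wild-type CV of at least 0.2, 1 passed the authors' threshold (Loxl1), and of the 30 with a lower CV 16 passed. A wide spread itself makes a test between groups harder to pass, so these counts are no separate result. Across all genes measured, 18.4% passed at a wild-type CV of at least 0.2 and 30.9% below it. Whether the same wild-type mice were high or low for all these genes cannot be read from means and CVs.

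**Figure D4:**
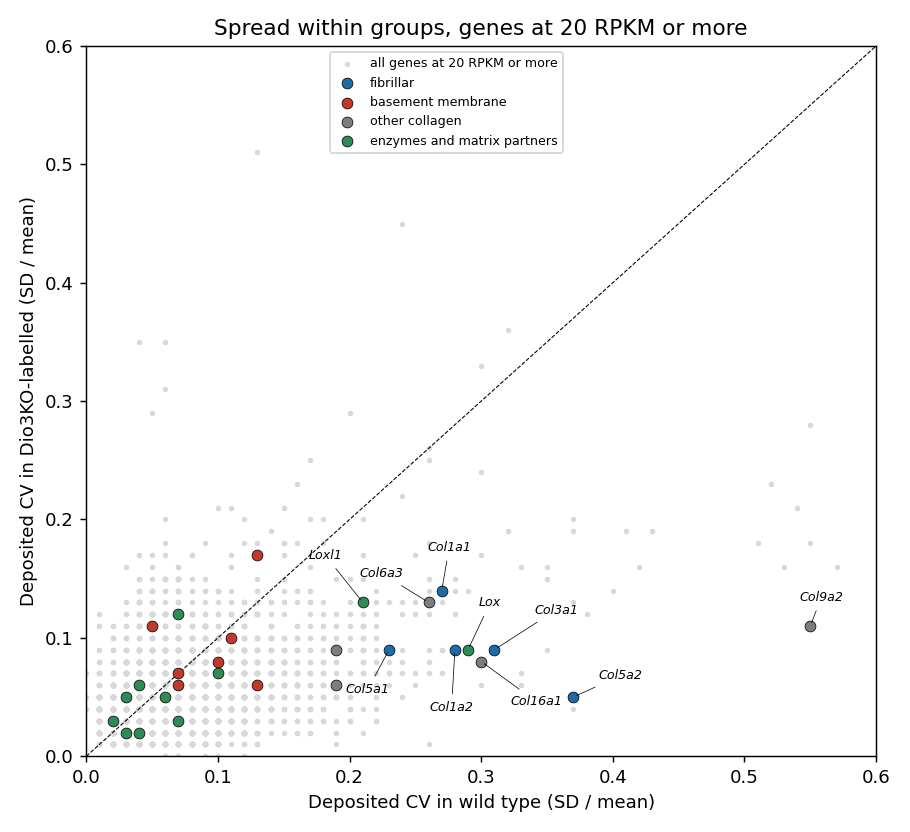
Deposited CV in wild type against deposited CV in the Dio3KO-labelled group for genes with an average of at least 20 RPKM (grey: all genes; coloured: members by class; dashed: equal CVs), with names at wild-type CVs of 0.2 or more. The 5 fibrillar chains lie far right and low, and the basement membrane chains lie at wild-type CVs of 0.05 to 0.13.

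Genes that share the pathway but not the rule were listed in 7 groups. Of 59 listed genes, 50 were measured, 14 rose (28.0%) and 2 fell (4.0%), and the median of their log2 ratios was 0.14. The 32.0% that passed in either direction lay near the 29.7% of all genes measured. By direction the shares differed from those of all genes measured, of which 13.8% rose and 15.8% fell. In folding and hydroxylation, 4 of 12 rose and 0 fell: P3h4, which belongs to a lysyl hydroxylase complex (30.5 to 36.6 RPKM), Fkbp10, a collagen prolyl isomerase (45.3 to 55.2 RPKM), P3h1, a prolyl 3-hydroxylase (26.2 to 28.6 RPKM), and Fkbp14 (20.2 to 25.3 RPKM). Ppib, the isomerase that works with P3h1, did not pass at 307 and 290 RPKM. None of 7 genes of collagen export passed either the authors' threshold or limma's moderated test, and Ctage5, the highest by the average of both means, was at 30.6 and 35.0 RPKM. Of 4 measured procollagen proteinases and enhancers, Bmp1, which removes the C-terminal propeptide, fell from 37.9 to 30.5 RPKM, Adamts14, an N-propeptide proteinase, rose from 3.74 to 4.40 RPKM, and Pcolce was at 90.3 and 90.2 RPKM.

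Among 11 measured fibril-associated genes, 3 rose and 1 fell. The proteoglycan Dcn, which coats fibrils, rose from 357 RPKM (CV 0.21) to 600.1 RPKM (CV 0.11), Prelp rose from 1.23 to 2.79 RPKM, and Dpt from 24.3 to 38.9 RPKM. Vcan fell from 14.9 to 7.50 RPKM, and Omd was at 118 and 117 RPKM. In this group 8 of 11 genes had a wild-type CV of at least 0.2, as the fibrillar chains did. Of 4 basement membrane partners, Nid2 rose from 29.0 to 38.8 RPKM and Nid1, at 59.7 and 65.7 RPKM, did not pass. Of 6 measured collagen receptors, 3 rose and 0 fell: Lair1, an inhibitory receptor of leukocytes (0.42 to 1.18 RPKM), Ddr1, a receptor tyrosine kinase (39.1 to 54.4 RPKM), and Itga1 (6.0 to 8.45 RPKM), while Ddr2 was at 11.8 and 11.9 RPKM. Over all genes measured, 13.8% rose and 15.8% fell. Lair1 reached the level limit only through its Dio3KO-labelled mean, so its rise helped it into this count. Limma's moderated test also called Itga11 lower (2.45 and 1.93 RPKM, adjusted p = 0.0271). Of 6 regulators, the growth factors Tgfb3 (18.2 to 39.5 RPKM) and Tgfb2 (4.00 to 10.3 RPKM) rose, and Ctgf, at 59.8 and 47.6 RPKM, did not pass.

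Markers of the cells that could carry these genes moved as well, and in bulk tissue fewer cells of a type and less RNA per cell cannot be told apart. The counts below stand beside 13.8% of all genes measured that rose and 15.8% that fell. Of 8 interstitial fibroblast markers 3 rose and 0 fell, their sum going from 365 to 482 RPKM. Dpt, which rose, and Lum are also in the list of fibril-associated genes above, so the lists are not separate. Endothelial markers, 5 of 8 of which rose, summed to 64.4 and 85.9 RPKM, and macrophage markers, 6 of 8 of which rose, to 47.9 and 101 RPKM. Of the macrophage markers that rose, Cd14 (0.62 and 1.53 RPKM) reached the level limit only through its Dio3KO-labelled mean. Peritubular myoid markers summed to 944 and 911 RPKM, with 3 of 8 risen and 1 fallen, and 0 of these 8 had a wild-type CV of at least 0.2. Germ cell markers, of which 0 of 8 passed, had such a CV in 5 of 8. It was also found in 2 of 8 fibroblast (Dpt and Lum), 2 of 8 endothelial, 2 of 6 Leydig, 1 of 8 Sertoli and 1 of 8 macrophage markers. The share over all genes measured was 10.1%. Sertoli markers went both ways, with 3 of 8 risen (Cldn11 from 83.6 to 299.9 RPKM, Clu and Wt1) and 3 fallen (Amh from 284 to 127 RPKM, Gata4 and Dhh). Of 6 Leydig markers 2 rose and 1 fell, and their sums were 469 and 640 RPKM. Markers of cycling cells all fell, 8 of 8, from a sum of 421 to 247 RPKM, and of 8 cartilage markers 2 were measured, the list summing to 8.75 and 8.34 RPKM. No listed marker found in the table was at 0 in both groups. The part of these cell types in the differences of collagen genes was not tested.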

How the data were processed

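Whole-testis RNA sequencing of 8 mice, 4 per group, was deposited as 1 table of transcripts. The submitters' processing notes name FastQC, Novoalign 2.08 and mm10 as the build. The deposited values are mean RPKM per group, computed by the authors, per the file headers. Each group's coefficient of variation, a ratio of SD to mean, was deposited too, as was an adjusted p-value comparing the groups, per the file headers. Which counting tool, annotation, strandedness and test lie behind these values is not given in the sources used here. Columns were tied to groups by name. Because the table held means and no counts, no count model was used, and depth per sample is unknown.

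The 147417 lines held 49139 distinct transcripts and 24499 symbols (case ignored). The transcript with the highest average of both means stood for the gene, and 15821 genes had a larger mean of at least 1 RPKM. Log2 ratios have 0.5 RPKM added to each mean, and the delta method gave their SE from both CVs and 4 samples in each group. The threshold was an adjusted p of 0.05. A moderated test used the same variances (CVs of 0.00 set to 0.0025, 6 residual degrees of freedom) with squeezeVar (trend, robust) of limma 3.58.1 in R 4.3.3 and Benjamini-Hochberg adjustment over the 15821 genes. Tested on simulated data for this comparison with 15821 genes, it called 69 of 100 genes changed by 0.585 on the log2 scale, 91 of 100 changed by log2 1 and 13 of 15621 unchanged genes. The simulation changed only 200 genes and gave both groups the wild-type CV. Its rates need not hold for the data, where the test called 41.6% of all genes. Other symbols were matched through RefSeq synonyms. Coordinates came from RefSeq (GRCm38.p6) or, for gene starts, GENCODE M21, both of the mm10 assembly. Named were every member past the threshold, the best expressed members of each class and those beside the level limit, and, of the other pathway genes, up to 3 per group past the threshold and 1 not. Some names outside this rule, such as the remaining members, were added after their values were seen. Members and lists were chosen with earlier results of these data known. Alternatives were other pseudocounts, level filters, scalings, transcript choices and call rules.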

Additional observations from a re-analysis of the deposited data

How the results depend on the processing

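No paired analysis was possible because the table holds group means without values of single samples; for the same reason no replicate could be left out in turn. Under scaling to equal summed RPKM, centring on the median of all genes, or summing transcripts, 0 of the 17 members that passed changed direction. Other pseudocounts cannot change a direction. Scaling and centring moved every ratio upward, so by them only the 5 that fell could have turned. Of these Plod3 came nearest, with a log2 ratio of -0.04 under scaling. The count of members higher, 12, was 5 at an authors' adjusted p of 0.01, where 2 were lower, and 20 with limma's moderated test on centred ratios. The count of members lower, 5, was 2 at an average of at least 5 RPKM, since Col5a3, Col17a1 and Col25a1 are under that level. With limma's moderated test uncentred, 7 further members passed (Col1a2, Col4a2, Col4a6, Col7a1, Col22a1 and P4ha1 higher, Col8a1 lower) and 0 were lost. The median log2 ratio of basement membrane collagens, 0.56, was 0.41 at an average of at least 5 RPKM, which keeps 7 of the 8, and 0.56 for type IV alone. That of enzymes and matrix partners, 0.13, was 0.22 with both groups scaled to the same summed RPKM. That of fibrillar collagens, 0.19, ranged from 0.17 to 0.31 over the alternatives. The unknown depth leaves the counting error of low genes such as Col25a1 and Col8a1 unmeasured.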
